A study of Mus musculus with 6 samples.

Results

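The odorant receptor (OR) genes of the mouse include many whose name carries the suffix -ps, which marks a gene named as a pseudogene. Of 1248 OR genes with deposited values, 151 (of 24661 genes in all) had a name that begins with Olfr and contains -ps, and all 151 were taken. The choice used the name alone and no measured value. By the GENCODE M21 annotation, or RefSeq where GENCODE M21 had no match, 38 of the 151 were protein coding and 113 were pseudogenes. These annotation classes are kept apart below.

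ORs are G protein-coupled receptors encoded by short, mostly intronless reading frames in large chromosomal clusters. Each mature olfactory sensory neuron (OSN) transcribes a single OR allele, and the receptor protein that the allele makes takes part in stabilizing that choice. A pseudogene may keep the promoter and much of the sequence of an OR, but a stop codon, a shifted frame or a truncation prevents a full-length receptor. A polymorphic pseudogene is disrupted in the reference strain and intact in some other strains.

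RNA from whole olfactory mucosa was sequenced from 3 wild-type and 3 RTP1,2DKO mice, all 21 days old and labelled strain C57BL/6 and tissue olfactory epithelium. RTP1,2DKO mice lack RTP1 and RTP2, accessory proteins that carry ORs to the cell surface. The coding regions of both genes had been replaced in an ES cell line of mixed 129/B6 origin and the allele was backcrossed to C57BL/6, so each gene was missing from all tissues. Each genotype had 2 males and 1 female, which were sex-matched littermates. The p-values below measure the spread between these mice. Total estimated counts lay between 31125410 and 41636996 per mouse. Rtp1 had 13589 to 25387 normalized counts in wild-type and 85.8 to 109.1 in RTP1,2DKO mice, and Rtp2 had 7181 to 9543 and 26.3 to 58.2, as the labels state. Among markers of mature OSNs, 7 of 8 (Omp, Adcy3 and Cnga2 among them) fell, and their summed TPM (a level per transcript length with the same total in each mouse) lay between 3010 and 5390 in wild-type and between 1230 and 1820 in RTP1,2DKO mice. Over all genes 3.15% were lower and 0.460% higher. Of the other marker lists, 2 of 5 immature OSN markers rose (Gap43 and Gng8) and 1 fell (Stmn4). Among blood genes 1 of 5 rose in edgeR (Hbb-bt) and DESeq2 called 2. All 5 had an unadjusted p under 0.05 in edgeR, with log2 fold changes of 0.71 to 0.88. Of basal and progenitor, sustentacular and tested respiratory markers, 0 of 6, 0 of 5 and 0 of 3 passed edgeR's test or DESeq2's. In edgeR 3, 0 and 0 of these had an unadjusted p under 0.05. Whole mucosa was measured, so fewer OSNs and less RNA per OSN cannot be told apart.

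The annotation of the 151 genes was mixed. GENCODE M21 gave 68 as unprocessed pseudogenes, 34 as polymorphic pseudogenes and 11 as transcribed unprocessed pseudogenes. Of 37 that GENCODE M21 gave as protein coding, RefSeq (GRCm38.p6) gave 26 as pseudogenes and 11 as protein coding. Olfr1096-ps1 was found in RefSeq only, as the protein-coding gene Olfr1096. For 12 members, among them Olfr1096-ps1, Olfr418-ps1, Olfr406-ps and Olfr1174-ps, the RefSeq symbol has no -ps, and the files use another name. The longest open frame, from an ATG to a stop codon in any GENCODE transcript, had a median of 314 codons over the 37 protein-coding members with a transcript there, as over 1079 intact ORs (314 codons), against 235 codons over polymorphic and 94 codons over unprocessed pseudogenes. Chromosome 2 held 65 members, chromosomes 7 and 11 held 24 each and chromosome 17 held 12.

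The disruption could be read in the reference by aligning a GENCODE M21 pseudogene transcript to the reading frame of the most similar intact OR. This was possible from an ATG start codon for 12 of the 24 annotated pseudogenes that averaged 10 or more counts, and in 10 of those 12 the frame ended before 90% of its length. The alleles that these mice carry were not checked. The stretches below are shown because they mark where the frame is lost in the reference for members whose values follow. They lie in exons of GENCODE M21 pseudogene transcripts on GRCm38, are read 5′ to 3′ on the transcript's strand, and each stands above the same stretch of its most similar intact OR, with the stop codon and the codon at its place in capitals. Substitutions give the base of the intact OR, its position from the A of its start codon, and the base of the pseudogene. Olfr1077-ps1 (chr2:86525693-86525755, minus strand) was 90.2% identical to Olfr1076 (chr2:86508881-86508943), and C453G leaves 150 of 313 codons.
Olfr1077-ps1: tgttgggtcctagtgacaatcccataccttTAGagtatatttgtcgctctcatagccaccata
Olfr1076: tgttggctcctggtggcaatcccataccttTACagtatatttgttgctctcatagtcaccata

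Olfr753-ps1 (chr17:37170323-37170385, minus strand) was 96.5% identical to Olfr92 (chr17:37111657-37111719), and C292T leaves 97 of 312 codons.
Olfr753-ps1: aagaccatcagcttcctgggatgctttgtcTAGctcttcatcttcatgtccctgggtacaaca
Olfr92: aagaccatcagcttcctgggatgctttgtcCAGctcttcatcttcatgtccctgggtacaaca

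Olfr396-ps1 (chr11:73928193-73928255, plus strand) was 90.4% identical to Olfr390 (chr11:73787123-73787185), and G215A with C216A leaves 72 codons.
Olfr396-ps1: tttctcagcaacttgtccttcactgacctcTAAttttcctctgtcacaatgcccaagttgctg
Olfr390: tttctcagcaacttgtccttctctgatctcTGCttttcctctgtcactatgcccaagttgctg

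In Olfr1300-ps1 (chr2:111691713-111691772, plus strand) 2 bases of Olfr1299 (chr2:111664421-111664482) are missing after 223 bases of the frame, and a stop follows after 93 codons. In Olfr1372-ps1 (chr11:52155398-52155457, minus strand), which was 97.5% identical to Olfr1383 (chr11:49524551-49524612), 2 bases are missing after 856 bases, and no stop codon was met in the 933 bases read. The longest open frame of Olfr1372-ps1 in any GENCODE M21 transcript had 578 codons, and whether it holds the OR frame was not tested. Capitals mark the bases of the intact OR that the alignment found missing.
Olfr1300-ps1: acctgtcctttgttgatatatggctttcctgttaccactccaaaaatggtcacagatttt
Olfr1299: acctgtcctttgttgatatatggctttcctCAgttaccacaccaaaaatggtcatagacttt
Olfr1372-ps1: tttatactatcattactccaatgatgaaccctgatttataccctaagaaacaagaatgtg
Olfr1383: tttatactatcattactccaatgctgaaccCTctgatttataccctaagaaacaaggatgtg

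Most annotated pseudogenes had few or no counts, and a few members held most of the counts. Of the 151 members, 39 had 0 counts in every mouse, which allows up to 3 counts, or 0.0721 to 0.0964 CPM (counts scaled to the library total), in a mouse and covers counting error only. All 39 were annotated pseudogenes, and 33 were of the unprocessed kind. At least 1 count was found for 81 to 88 members in wild-type and 87 to 89 in RTP1,2DKO mice. A mean of at least 10 counts was reached by 34 of 38 protein-coding members (89.5%), 15 of 34 polymorphic pseudogenes, 5 of 11 transcribed pseudogenes and 4 of 68 unprocessed pseudogenes, against 88.4% of 1086 intact ORs. The median wild-type TPM was 3.75 over the protein-coding members, 3.02 over intact ORs, 0.42 over polymorphic, 0.787 over transcribed and 0 over unprocessed pseudogenes.

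Olfr1372-ps1 alone held 22.5% of the members' counts, and with Olfr1192-ps1 and Olfr1191-ps1 the sum was 43.9%. By wild-type counts Olfr1372-ps1 ranked 6 and Olfr1192-ps1 ranked 22 of 1248 OR genes. Per length, the highest TPM belonged to Olfr1004-ps1, with 95.3, 147 and 60.9 TPM in wild-type mice 1 to 3, followed by Olfr1372-ps1 with 46.1, 54.2 and 31. Olfr1004-ps1 ranked 4 by TPM and 357 by counts among OR genes, since its record is 453 bases long with an effective length of 66.9. Olfr719-ps, a record of 242 bases with an effective length of 37.9, followed with 9.71, 37.6 and 0 TPM. Olfr719-ps rested on few counts (10.2, 40.3 and 0), unlike Olfr1004-ps1 (177.5, 279.1 and 153.3). The other members among the 10 with the highest wild-type TPM were Olfr1326-ps1 (15.5 ± 4.8 TPM, SD, n = 3), Olfr1192-ps1 (9.51 ± 3.27), Olfr1224-ps1 (9.02 ± 3.4), Olfr1369-ps1, Olfr364-ps1, Olfr637-ps1 and Olfr721-ps1.

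The comparison of genotypes was first made against all genes, which asks how much of the mucosa's RNA each member gave. Size factors came from all genes, and edgeR's quasi-likelihood F-test was adjusted by Benjamini-Hochberg across 22152 genes. On this scale 16 of 110 tested members were lower and 1 was higher in RTP1,2DKO (adjusted p under 0.05). Over all genes 3.15% were lower and 0.460% higher, and over intact ORs 38.3% were lower and 4.36% higher. The protein-coding members gave 14 lower and 1 higher of 37 tested. The annotated pseudogenes gave 2 lower and 0 higher of 73 tested, of which 24 had a mean of at least 10 counts. At that minimum the median log2 fold change was -1.09 over 34 protein-coding members, -1.13 over 960 intact ORs, 0.11 over the 24 annotated pseudogenes and 0.01 over all genes.

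The members called lower were protein coding, apart from Olfr1004-ps1 and Olfr1372-ps1. Olfr548-ps1, on chromosome 7, had 139.1, 116.5 and 122.8 normalized counts in wild-type against 12.7, 16.6 and 9.8 in RTP1,2DKO, in the order of mouse number, a log2 fold change of -3.25 ± 0.33 (SE, adjusted p = 0.000127 in edgeR). Its frame of 314 codons is open, although RefSeq lists it as a pseudogene. Olfr1326-ps1, on chromosome X, had 623.2, 668.3 and 511.2 normalized counts in wild-type and 119.5, 80.5 and 102.3 in RTP1,2DKO mice. Its log2 fold change was -2.58 ± 0.19. Olfr1096-ps1 had 341.5, 439.4 and 253.3 against 57.1, 43.8 and 57, a log2 fold change of -2.71 ± 0.25. For these genes every wild-type mouse was above every RTP1,2DKO mouse.

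Olfr1004-ps1, at chr2:85656256-85656835, was the annotated pseudogene with the largest fall. It had 184.2, 267.2 and 169.6 normalized counts in wild-type and 27.8, 25.6 and 31.9 in RTP1,2DKO mice (log2 fold change -2.88 ± 0.28, adjusted p = 8.45e-05 in edgeR). The truncated copy shared 28.2% of its 31-base words with Olfr1006, an intact OR that also fell (-2.41 ± 0.37, adjusted p = 0.00191), so reads of the 2 genes may be divided between them. The other falls were Olfr406-ps (-2.40), Olfr721-ps1 (-2.39), Olfr1224-ps1 (-2.19), Olfr1025-ps1 (-2.17), Olfr237-ps1 (-1.95), Olfr1174-ps (-1.94), Olfr1532-ps1 (-1.92), Olfr1177-ps (-1.87), Olfr1369-ps1 (-1.71), Olfr718-ps1 (-1.20), Olfr329-ps (-1.04) and Olfr1372-ps1 (-0.72). Olfr1532-ps1 (adjusted p = 0.0372) was no longer called when any mouse but RTP1,2DKO mouse 3 was left out, with adjusted p between 0.0583 and 0.112. Olfr1191-ps1 was the single member called higher, with a log2 fold change of 0.64 ± 0.15 (adjusted p = 0.035), and lost the call without wild-type mouse 1 or 3 or RTP1,2DKO mouse 1 or 3 (adjusted p between 0.0508 and 0.154).

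**Figure D1:**
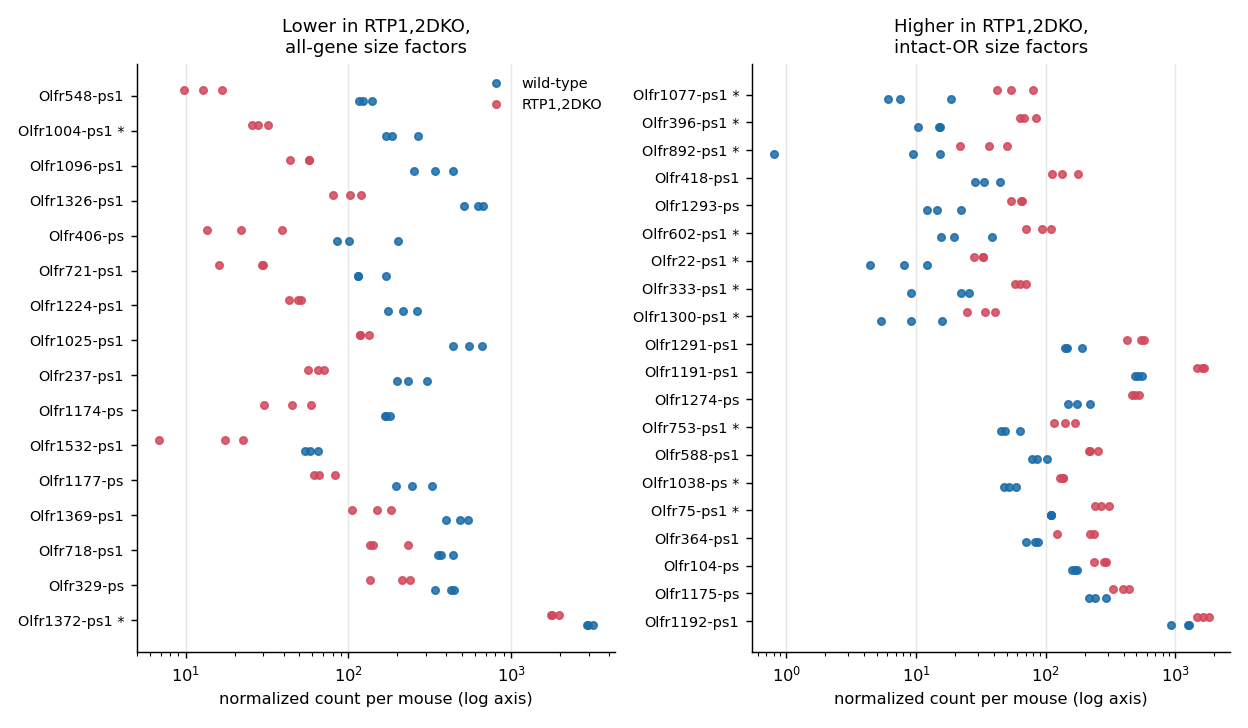
Normalized counts per mouse on a log axis for members with a mean of at least 10 counts that passed the test; each point is 1 of 3 wild-type (blue) or 3 RTP1,2DKO (red) mice, and an asterisk marks annotated pseudogenes. Left, the 16 members lower with all-gene size factors, of which 2 carry an asterisk; right, the 20 members higher with intact-OR size factors, of which 10 do.

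The comparison was then made among ORs, so that a member is read against the typical intact OR. Here the table was reduced to OR genes, size factors were medians of ratios over intact ORs, and the adjustment ran over 1199 OR genes. Of the 110 tested members, 12 were lower and 23 higher in RTP1,2DKO, where 24.0% of all OR genes were lower and 28.3% higher, and 25.6% of intact ORs were lower and 28.9% higher. These counts differed between the 2 annotation classes, which follow GENCODE M21 where it has a match. Of 37 protein-coding members 11 were lower (29.7%) and 11 higher (29.7%). Of 73 annotated pseudogenes 1 was lower (1.37%) and 12 higher (16.4%), and most of these 73 had too few counts to be called. At a mean of at least 10 counts, the median log2 fold change was -0.15 over protein-coding members, -0.17 over intact ORs and 1.12 over annotated pseudogenes. The classes lay closer when RefSeq alone defined them. Of 97 tested members that RefSeq gives as pseudogenes 9 were lower and 20 higher, and of 13 it gives as protein coding 3 were lower and 3 higher. Their medians at that minimum were 0.65 and -0.10.

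The directions depended on the scaling. When the total of intact-OR counts served as the size of each library, log2 fold changes of OR genes shifted by a median of -0.78, and the members split into 27 lower and 11 higher (24.5% and 10% of 110) in place of 12 and 23. The intact ORs then gave 512 lower and 176 higher (47.5% and 16.3% of 1078) in place of 276 and 312. The annotated pseudogenes then gave 6 lower and 4 higher and the protein-coding members 21 lower and 7 higher. A change of scaling moves both classes by nearly the same amount, so the distance between their medians could hardly change with it. The median of the annotated pseudogenes lay 1.27 log2 units above that of the protein-coding members, and 1.24 with the total count. Over all settings of the comparison among ORs the distance ran from 1.10 to 1.52, and both ends came from leaving out a mouse. This distance is a description, without a test.

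The 2 classes also differed in level, since wild-type counts had a median of 20 over the annotated pseudogenes and 166 over the protein-coding members with a mean of at least 10 counts. Within the band of 10 to 30 counts, 4 of 15 annotated pseudogenes were higher among ORs (26.7%) against 11.9% of 143 intact ORs, with medians of 0.88 and -0.15. Within 30 to 100 counts, 5 of 6 were higher (83.3%) against 17.5% of 291 intact ORs, with medians of 1.60 and -0.54. At 100 counts and more there were 3 annotated pseudogenes, with a median of 0.24 against 0.29 over 526 intact ORs. A further 11 OR genes without -ps in the name are pseudogenes in GENCODE M21. Among these 4 were higher and 0 lower, where 28.3% of all OR genes were higher and 24.0% lower. For 11 genes this is near the share of all OR genes and no result about them. The 4 called genes had log2 fold changes from 1.22 to 2.96.

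**Figure D2:**
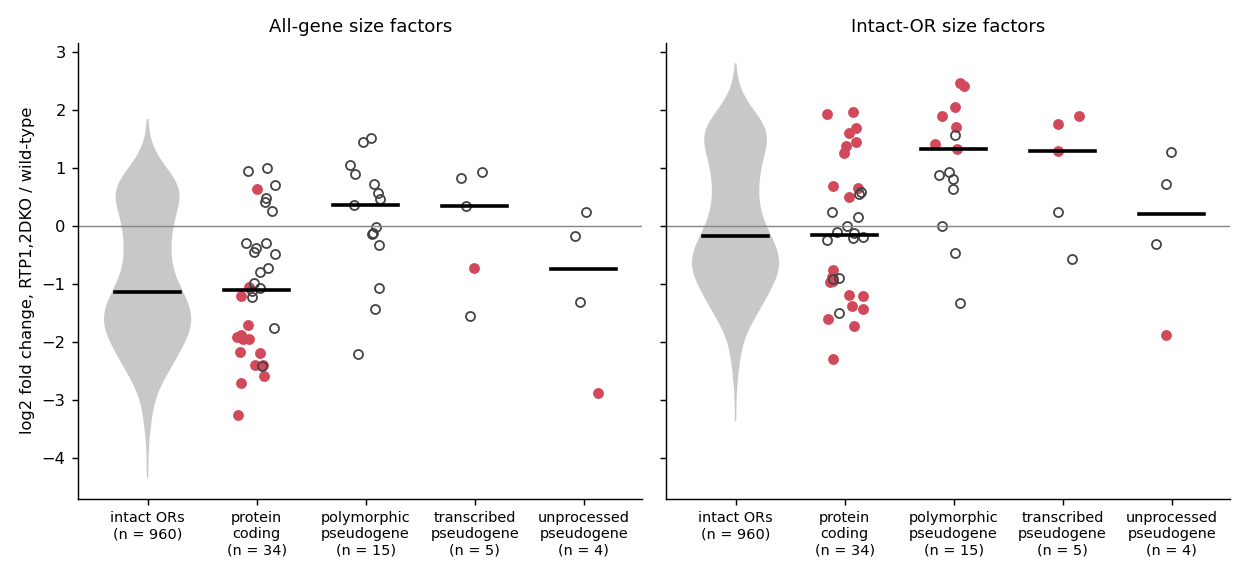
Log2 fold change (RTP1,2DKO over wild-type) by annotation for genes with a mean of at least 10 counts, with all-gene size factors (left) and intact-OR size factors (right); the grey shape is the distribution over 960 intact ORs, points are members, filled red where the adjusted p was under 0.05, and bars are medians. Protein-coding members have medians of -1.09 and -0.15, next to -1.13 and -0.17 over intact ORs. On the right 18 of 24 annotated pseudogenes lie above 0, as do 15 of 34 protein-coding members and 441 of 960 intact ORs.

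Among ORs, the 2 annotated pseudogenes that rose most at a mean of at least 10 counts have an early stop codon in GENCODE M21. Olfr753-ps1 rose as well. Olfr1077-ps1, whose frame ends after 150 codons, had 7.5, 6.1 and 18.6 OR-normalized counts in wild-type and 42.3, 79.3 and 53.7 in RTP1,2DKO mice, a log2 fold change of 2.48 ± 0.49 (SE, adjusted p = 1.77e-05 in edgeR). Olfr396-ps1, whose frame ends after 72 codons, had 15, 10.4 and 15.2 against 62.9, 84.3 and 68.1 (2.43 ± 0.42, adjusted p = 1.59e-06). Olfr753-ps1, whose frame ends after 97 codons, had 63.8, 45.4 and 49 against 167.6, 141.2 and 115.8 (1.43 ± 0.28, adjusted p = 1.59e-05). In each case all 3 RTP1,2DKO mice were above all 3 wild-type mice.

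The intact relatives of these genes did not all move with them. Olfr390, the most similar intact OR of Olfr396-ps1, was lower among ORs (-0.76 ± 0.24, adjusted p = 0.00553 in edgeR). Olfr92, that of Olfr753-ps1, was higher (1.50 ± 0.30, adjusted p = 1.97e-05), and Olfr753-ps1 shared 22.8% of its 31-base words with it. Olfr1076, that of Olfr1077-ps1, had 1.19 ± 0.71 (adjusted p = 0.154). Relative to all genes the rises of Olfr396-ps1 (1.46 ± 0.38, adjusted p = 0.0616 in edgeR) and Olfr1077-ps1 (1.52 ± 0.49, adjusted p = 0.157) did not pass the threshold.

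The frameshifted Olfr1300-ps1 had 5.4, 15.8 and 9.1 OR-normalized counts in wild-type and 41, 33.8 and 24.7 in RTP1,2DKO mice (1.71 ± 0.59, adjusted p = 0.0113 in edgeR), and was not called without wild-type mouse 1 or RTP1,2DKO mouse 1 (adjusted p = 0.0576 and 0.0584). The transcribed pseudogene Olfr75-ps1 had 110.1, 110.2 and 109.4 against 306, 242.3 and 267.8 (1.30 ± 0.24, adjusted p = 4.03e-06). The remaining rises with a mean of at least 10 counts were Olfr892-ps1 (2.06), Olfr22-ps1 (1.90), Olfr602-ps1 (1.90), Olfr333-ps1 (1.76) and Olfr1038-ps (1.34). Olfr1038-ps has an open frame of 318 codons in GENCODE M21 although it is listed there as a polymorphic pseudogene. Olfr1063-ps1 and Olfr1073-ps1 were also called, the latter with 0 counts in all wild-type and 8.3, 0 and 2.1 counts in RTP1,2DKO mice, which is too few to read a fold. The calls of both were lost with the replicate number as a block (adjusted p = 0.0852 and 0.127), that of Olfr1063-ps1 also without wild-type mouse 2 or RTP1,2DKO mouse 3 (0.0629 and 0.303), and that of Olfr1073-ps1 without any wild-type mouse or RTP1,2DKO mouse 1 (0.0666 to 0.321). Scaled by the total of intact-OR counts, Olfr753-ps1, Olfr75-ps1, Olfr892-ps1, Olfr22-ps1, Olfr1038-ps, Olfr1300-ps1, Olfr1063-ps1 and Olfr1073-ps1 kept values above 0 but not the call. Of the 10 aligned frames that end early, 5 were called higher among ORs and 5 were not called. The latter were Olfr388-ps1 (1.58 ± 0.74, adjusted p = 0.0673 in edgeR), Olfr1027-ps1 (0.73 ± 0.78, 0.437), Olfr300-ps1 (0.65 ± 0.56, 0.337), Olfr964-ps1 (-0.0009 ± 0.59, 0.999) and Olfr1117-ps1. The frame of Olfr1117-ps1 ends after 35 codons and its value was -1.33 ± 0.89 (adjusted p = 0.209 in edgeR), with 13.9, 13.2 and 13 OR-normalized counts in wild-type and 14.5, 1.3 and 0 in RTP1,2DKO mice.

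Among the protein-coding members, the changes relative to intact ORs ran in both directions. Olfr548-ps1 (-2.29), Olfr1096-ps1 (-1.72), Olfr1326-ps1 (-1.61), Olfr406-ps (-1.43), Olfr721-ps1 (-1.39), Olfr1224-ps1 (-1.20), Olfr1025-ps1 (-1.18), Olfr237-ps1 (-0.96), Olfr1174-ps (-0.95), Olfr1177-ps (-0.88) and Olfr1369-ps1 (-0.75) were lower. Olfr418-ps1, which carries the current symbol Olfr418, had 44.8, 28.5 and 33.5 OR-normalized counts in wild-type and 133.5, 111.7 and 177 in RTP1,2DKO mice, a log2 fold change of 1.98 ± 0.30 (adjusted p = 7.3e-08 in edgeR). Olfr1293-ps (1.93), Olfr1291-ps1 (1.69), Olfr1191-ps1 (1.61), Olfr1274-ps (1.45), Olfr588-ps1 (1.39), Olfr364-ps1 (1.26), Olfr104-ps (0.69), Olfr1175-ps (0.65) and Olfr1192-ps1 (0.51) were also higher, and Olfr1375-ps1 was called with a mean of 5.5 counts, but not without RTP1,2DKO mouse 2 (adjusted p = 0.0755 in edgeR). Scaled by the total of intact-OR counts, Olfr104-ps (-0.09), Olfr1175-ps (-0.12) and Olfr1192-ps1 (-0.27) turned below 0 and were not called, and Olfr364-ps1 (0.46) was no longer called. Olfr1174-ps and Olfr1175-ps share 31-base words (32.8% of those of the former), lie next to each other on chromosome 2, and were called in opposite directions. The call of Olfr1174-ps was lost without RTP1,2DKO mouse 1 (adjusted p = 0.0626 in edgeR), and that of Olfr1175-ps without that mouse (0.0561) or wild-type mouse 2 (0.0607).

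Olfr1372-ps1, the most abundant member by counts, is a transcribed pseudogene at chr11:52154722-52168159. It had 3211, 2968 and 2942 normalized counts in wild-type and 1977, 1762 and 1786 in RTP1,2DKO mice, a log2 fold change of -0.72 ± 0.11 (adjusted p = 0.00234 in edgeR). Relative to intact ORs the change was 0.24 ± 0.23 (adjusted p = 0.382), and its OR-normalized counts were 2307, 1883 and 2354 against 2472, 2618 and 2636. The files hold 7 transcript records of the gene, and 4 of them took nearly all of its counts. The record of 4223 bases had 1226 ± 137.1 normalized counts in wild-type and 1004 ± 18.9 in RTP1,2DKO (SD, n = 3). The 2 records of 9809 bases, which had equal counts in every mouse, summed to 1511 ± 280.7 and 709.6 ± 187.1, and the record of 905 bases had 303.4 ± 37 and 127.9 ± 63.2. The ratio of RTP1,2DKO to wild-type was thus 0.819, 0.47 and 0.422. Wild-type mice were above all RTP1,2DKO mice for each record, and the difference between records was not tested. Of the gene's 31-base words, 7% were shared with Olfr1383, which had 77.1 to 123.9 normalized counts in wild-type mice.

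**Figure D3:**
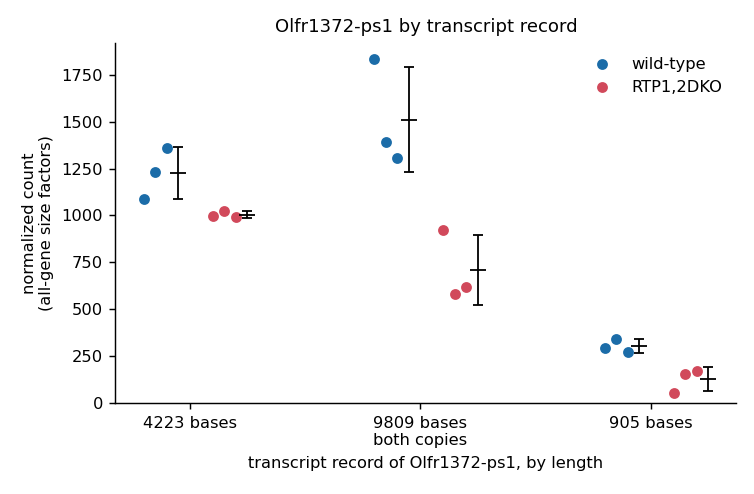
Normalized counts (all-gene size factors) of the transcript records of Olfr1372-ps1 by length, with 1 point per mouse (blue, wild-type; red, RTP1,2DKO) and the mean ± SD (n = 3) beside the points. Means were 1226 in wild-type and 1004 in RTP1,2DKO for the 4223-base record, and 1511 and 709.6 for the 9809-base records.

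Olfr1192-ps1 and Olfr1191-ps1, next to Olfr1372-ps1 in abundance by counts, are adjacent on chromosome 2 (chr2:88648509-88659772 and chr2:88640542-88648438, plus strand) and protein coding in GENCODE M21, with frames of 311 and 318 codons. Olfr1191-ps1 had 550.2, 517.7 and 485.2 OR-normalized counts in wild-type and 1618, 1465 and 1662 in RTP1,2DKO mice, a log2 fold change of 1.61 ± 0.22 (adjusted p = 5.76e-09 in edgeR). Olfr1192-ps1 had 1252, 928 and 1271 against 1810, 1466 and 1628 (0.51 ± 0.22, adjusted p = 0.0472), and its call was lost with TMM (adjusted p = 0.0682) and without any of 5 mice, all but RTP1,2DKO mouse 2 (adjusted p between 0.0501 and 0.198). Relative to all genes the pair had log2 fold changes of opposite sign, 0.64 ± 0.15 and -0.44 ± 0.15 (adjusted p = 0.182 for the latter, and 0.0487 with the replicate number as a block). The next intact ORs on the far side, Olfr1193 (1.82 ± 0.22) and Olfr1195 (1.61 ± 0.22), were higher, Olfr1196 was not called (-0.12 ± 0.22, adjusted p = 0.664) and Olfr1197 was higher again (1.64 ± 0.25). Further out the calls were mixed, with Olfr1199 (0.98 ± 0.26) higher and Olfr1206 (-1.54 ± 0.31) lower. On the other side the nearest intact ORs, Olfr1189 (0.78 ± 0.39) and Olfr1188 (1.36 ± 0.84), were not called, nor was any gene from there to Olfr1178. Beyond these Olfr1177-ps (-0.88 ± 0.26) was lower, as was its neighbour Olfr1176 (-0.80 ± 0.24). Over 55 pairs of a member and its nearest intact OR, log2 fold changes correlated weakly (Pearson r = 0.157). Of the words of Olfr1191-ps1, 19.4% were shared with Olfr1193.

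**Figure D4:**
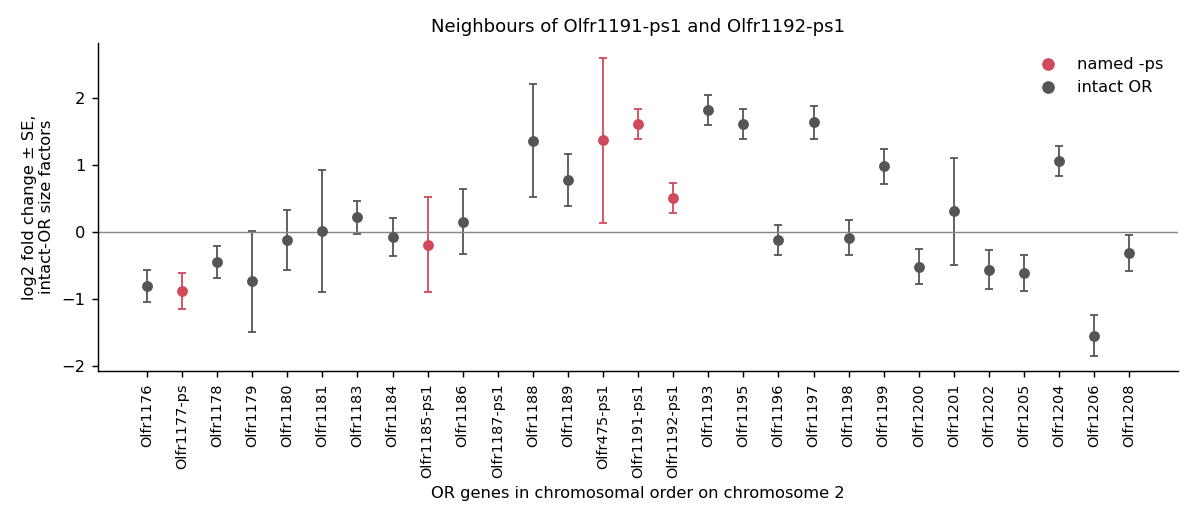
Log2 fold change ± SE with intact-OR size factors for OR genes in chromosomal order on chromosome 2 around Olfr1191-ps1 and Olfr1192-ps1 (red, named -ps; grey, intact ORs; Olfr1187-ps1 had no counts). Olfr1191-ps1, Olfr1193, Olfr1195 and Olfr1197 lie at 1.61 to 1.82, with Olfr1192-ps1 at 0.51 and Olfr1196 at -0.12 between them.

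The share of all OR counts that fell on the 151 members was smaller in RTP1,2DKO. It was 3.95%, 3.72% and 3.77% in the wild-type and 3.09%, 2.88% and 2.63% in the RTP1,2DKO animals, without overlap (mean 3.81 ± 0.125 and 2.87 ± 0.231, SD, n = 3). The protein-coding members took 2.62 ± 0.0577% and 1.91 ± 0.158%, and Olfr1372-ps1 took 0.887 ± 0.0813% and 0.616 ± 0.0437%. The annotated pseudogenes other than Olfr1372-ps1 together took 0.304 ± 0.0225% and 0.337 ± 0.0473%, and here the mice of the 2 genotypes overlapped. Olfr907, the intact OR with most counts, took 20.7 ± 1.97% and 27.3 ± 4.94% of OR counts, and without it the members' share was 4.81 ± 0.0743% and 3.94 ± 0.0502%. Normalized to all genes, the members' summed counts were 13104 ± 838 in wild-type and 8587 ± 977 in RTP1,2DKO, a ratio of 0.655, against 0.879 for intact ORs. Sums give abundant genes the most weight. The median log2 fold changes relative to all genes had the opposite order. At a mean of at least 10 counts they were -0.60 over members and -1.13 over intact ORs.

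**Figure D5:**
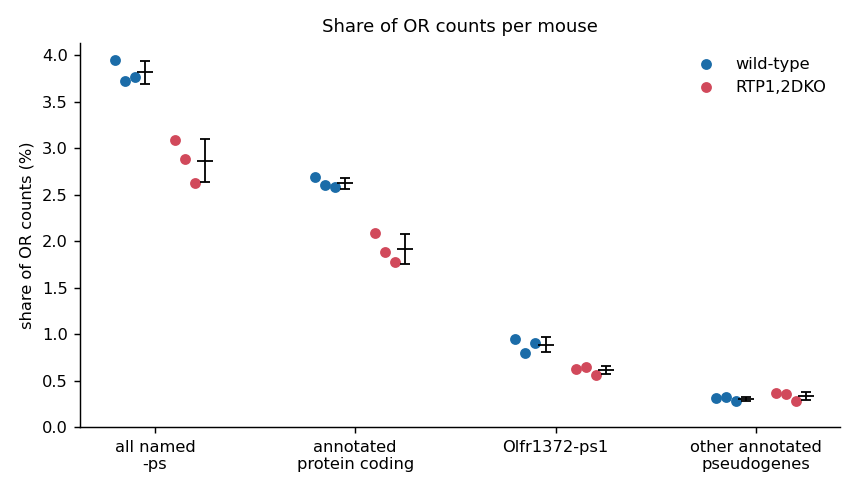
Share of OR counts per mouse (in %) for all 151 members, the protein-coding members, Olfr1372-ps1 and the other annotated pseudogenes; points are mice (blue, wild-type; red, RTP1,2DKO) and bars show the mean ± SD (n = 3). The first 3 shares are lower in all RTP1,2DKO mice, and the last has means of 0.304% and 0.337%.

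A few members were set by single mice. Olfr175-ps1 had 195.1 normalized counts in RTP1,2DKO mouse 2 but 17.2 and 28.7 in the other RTP1,2DKO mice, with 95.3 to 125.8 in wild-type. Its log2 fold change relative to intact ORs was 0.55 ± 0.37 (adjusted p = 0.215 in edgeR) and turned to -1.33 without that mouse (adjusted p = 0.00194). Olfr911-ps1 had 3.8 and 4.4 normalized counts in mouse 2 of each genotype, against 71.6 and 90.7 in the other wild-type and 26.4 and 18.4 in the other RTP1,2DKO mice. Mouse 2 of each genotype carries the same number in the labels. Olfr1315-ps1 had 0, 19.9 and 51.8 in wild-type and 4, 8.8 and 0 in RTP1,2DKO mice, and Olfr964-ps1 had 54.8 in wild-type mouse 2 and 4.6 to 14.7 elsewhere.

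Lists of regulators were counted relative to all genes, of which 3.15% were lower and 0.460% higher, and 0 calls among 10 genes is near that share and no result about either list. Of 10 genes of OR choice, among them Lhx2 (0.19 ± 0.15) and Kdm1a (0.18 ± 0.11), 0 passed edgeR's test or DESeq2's, and 2 had an unadjusted p under 0.05 in edgeR. Of 10 genes of nonsense-mediated decay, the pathway that degrades messages with an early stop codon, 0 passed either test and 0 had an unadjusted p under 0.05, with Upf1 at -0.03 ± 0.11 and Smg1 at -0.07 ± 0.18. The median log2 fold change was 0.10 over the former and -0.09 over the latter.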

How the data were processed

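For each of 6 mice, the authors ran kallisto against UCSC mouse transcripts in which OR genes had been replaced by extended OR annotations, and deposited estimated counts, TPM values, lengths and effective lengths per transcript. The submitters' processing notes name mm10 and kallisto, and its version is not given in the sources used here. The library kit is stranded (KAPA in the labels, Illumina TruSeq in the methods). TPM values, which the authors deposited scaled to 1 total per mouse, were used for levels and 1 alternative, never for tests.

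Estimated counts were summed per gene over names without the trailing number and rounded. The estimated count of a gene with close relatives depends on how kallisto divided shared reads. Every gene that reached 1 count in any animal entered edgeR 4.0.16 (quasi-likelihood F-test on genotype alone, in R 4.3.3), with Benjamini-Hochberg adjustment at 0.05 and DESeq2 1.42.0 median-of-ratios size factors over all genes, and on the table of OR genes with size factors over 1086 intact ORs (no -ps in the name and not a pseudogene in GENCODE M21). SE is the log2 fold change over the root of F. Normalized counts are estimated counts over these size factors. On simulated counts with 200 changed genes, the fit of all genes recovered 58% of log2 changes of 1 and 89% of 2 with 10.4% false calls, and the fit of OR genes 63% and 98% with 3.59%. The changed genes averaged at least 10 counts and were balanced between rises and falls, and all other genes were unchanged. The check therefore covers neither the choice of scaling nor members with fewer counts.

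Positions, types and sequences are from GENCODE M21 (GRCm38, the same assembly as mm10) and RefSeq GRCm38.p6, which need not match the authors' annotation. All members but Olfr1096-ps1 matched GENCODE M21, 4 of them through a RefSeq synonym, and Olfr1073-ps1 has more than 1 record there and no position here. Words of 31 bases were compared with all GENCODE transcripts, and frames were aligned with Biopython 1.88. Genes named are the 10 members with the highest wild-type TPM, the 15 largest rises and 15 largest falls relative to all genes at a mean of at least 10 counts, members annotated protein coding at that mean, their neighbours and closest relatives where these bear on them, Rtp1, Rtp2 and list genes. Olfr1027-ps1, Olfr300-ps1, Olfr1063-ps1, Olfr1073-ps1, Olfr1375-ps1, Olfr964-ps1, Olfr1038-ps, Olfr75-ps1, Olfr1187-ps1 and Olfr907 were named after their values were seen. The members and lists were chosen with earlier results of these data known.

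The mice are numbered 1 to 3 in both groups and the methods call them littermates. Deviations from group means of same-numbered mice correlated at 0.14, 0.18 and 0.10 over 18156 genes, and those of differently numbered mice at -0.22 to 0.09. Deviations within a group cancel out by construction, so these values depend on each other and do not settle the pairing. The numbers may pair the mice, and the replicate number as a block was an alternative. The main fits left the block out, so any differences between pairs stay within the spread that their p-values measure. The other alternatives were TMM, a mean of at least 10 counts, DESeq2's Wald test, edgeR's exact and likelihood-ratio tests, total count on intact ORs, each mouse left out, other member sets, TPM shares, and shares without Olfr907 or, chosen after seeing the data, without Olfr1372-ps1. Counts of replicates differed, and each was treated as a separate mouse.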

Additional observations from a re-analysis of the deposited data

How the results depend on the processing

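Of 110 tested members, the number called relative to all genes was 17 and stayed between 15 and 22 under TMM, a mean of at least 10 counts, DESeq2, edgeR's exact and likelihood-ratio tests, the replicate block and each mouse left out (15 to 19), and the number called among ORs was 35 and ran from 32 to 52 (33 to 37 with each mouse left out), the 52 coming from the likelihood-ratio test. With the replicate block the counts were 21 and 34, with 17 and 33 calls in common with the fits without it; the block called Olfr105-ps (-0.73, adjusted p = 0.0145), Olfr106-ps (-1.09, 0.0249) and Olfr1192-ps1 (-0.45, 0.0487) relative to all genes and Olfr719-ps (1.87, 0.0439) among ORs, and lost Olfr1063-ps1 (2.14, 0.0852) and Olfr1073-ps1 (0.127, too few counts for a fold) among ORs, with no other call changed among these named members. Relative to all genes, 3 annotated pseudogenes were lower with the block and 2 without it. Leaving out the protein-coding members gave 2 and 13 calls. The median log2 fold change of members was -0.60 relative to all genes, 0.11 without protein-coding members, -0.39 with the 11 other annotated pseudogenes, and -0.84 to -0.49 with each mouse left out. Among ORs it was 0.37, and 0.33 with TMM, 1.12 without protein-coding members, 0.59 with the other pseudogenes, 0.53 with members of at least 50% unique words, and 0.21 to 0.43 with each mouse left out. The members' share of OR counts differed by -0.946 percentage points between genotypes, by -0.238 without protein-coding members, -1.6 with TPM, -0.687 without Olfr1372-ps1 and -1.06 to -0.827 with each mouse left out. Of the 48 named members, 34 were called in either fit, and 33 to 36 with each mouse left out.

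Some uncalled values changed sign among ORs. With each mouse left out, Olfr106-ps ran from -0.28 to 0.061 (0.026 without wild-type mouse 1), Olfr1116-ps from -0.23 to 0.34 (-0.09 and -0.05 without RTP1,2DKO mouse 1 or 2, and -0.043 with TMM), Olfr1185-ps1 from -0.42 to 0.15, Olfr175-ps1 from -1.33 to 1.05 (-0.13 with the replicate block), Olfr329-ps from -0.27 to 0.10 (0.033 without wild-type mouse 3) and Olfr709-ps1 from -0.41 to 0.16. Relative to all genes Olfr719-ps ran from -0.33 to 1.85 (-0.0037 without wild-type mouse 1). The cause was not tested. Members under 10 mean counts could rarely be called at this depth.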
